A study of Mus musculus with 9 samples.

Results

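The set comprised 7 mouse genes, Tfap2c, Tnfsf18, Cftr, Liph, Tm4sf1, Tlcd2 and Atg9b, out of 54232 genes in the count table. They were chosen by their counts, near 0 or low under a control hairpin with no target (shNT) and higher under both hairpins against Phf2, so their values in that contrast are given as a description, with no test. RNA-seq was made from primary mouse embryonic neural stem cells, labelled as brain subventricular zone and grown on laminin with fibroblast and epidermal growth factor, and RNA was taken 3 days after treatment. The groups were cells given hairpin sh900 against Phf2 (3 libraries), cells given hairpin sh902 against Phf2 (3 libraries) and cells given shNT (3 libraries). In each group 1 title carried no date, 1 carried 30 August and 1 carried 3 September. What the dates mark, how the hairpins were delivered and whether libraries came from separate cultures or animals are not given in the labels, and all p-values therefore rest on the variation among these libraries, part of which may be technical.

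Phf2 encodes a histone lysine demethylase of the KDM7 family, whose members remove methyl groups from histone tails and act on transcription of nearby genes. In a neural stem cell, genes of other lineages are generally held at low transcript levels. Tfap2c encodes the transcription factor AP-2 gamma of trophoblast, germ cells and ectoderm, and Tnfsf18 encodes GITR ligand, a TNF family ligand of antigen-presenting and endothelial cells. Cftr encodes the epithelial chloride channel mutated in cystic fibrosis, Liph a secreted phospholipase that makes lysophosphatidic acid, and Tm4sf1 a membrane protein of endothelium and carcinomas. Tlcd2 encodes a membrane protein with a TLC domain, and Atg9b an autophagy protein related to the ubiquitous Atg9a.

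Each library held between 23212472 and 32392496 estimated counts. The expression filter kept 17602 genes, all 7 among them. That filter can be passed through the hairpin groups alone, so passing it is no evidence about the genes. The defining markers of neural stem and progenitor cells were present at 1 CPM or more in at least 1 library for 13 of 13 genes, with summed levels of 9032 to 14139 CPM with sh900, 7854 to 10434 with sh902 and 7328 to 8440 with shNT. Vim alone had 3631 to 7563 CPM with sh900, 2912 to 5794 with sh902 and 1759 to 2946 with shNT. Hes5 went the other way, with 132, 11.1 and 163 CPM with sh900 (undated, 30 August and 3 September). It had 113, 5.98 and 136 with sh902, and 467, 76.6 and 279 with shNT. With both hairpins against shNT, 2 of the 13 were called higher and 3 lower in the blocked fit described below. That fit called 6.08% of all tested genes higher and 5.59% lower, and the fit without the block called none. CPM here is a gene's count relative to the TMM-scaled library size. Mki67, a proliferation marker, had 413 CPM (undated), 194 (30 August) and 326 (3 September) with sh900, 523, 299 and 455 with sh902, and 291, 869 and 60.1 with shNT. Its 30 August library was thus the lowest with either hairpin and the highest with shNT. Gfap, an astrocyte filament gene, had 59.4, 8.24 and 749 CPM with sh900, 67.4, 27.3 and 343 with sh902, and 610, 8.77 and 1377 with shNT, lowest on 30 August and highest on 3 September in each group. Fewer cells of a type and less RNA per cell cannot be told apart in such bulk libraries.

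Promoter windows of 300 bases, from 250 before to 50 after the RefSeq transcript start (GRCm38.p6), were available for 6 of the 7 genes, all but Tfap2c. Of these, 3 are printed, the one richest in CG, the one poorest in CG and that of the gene that differed most between hairpins. Capitals mark matches, on either strand, to 6 searched motifs: the AP-2 motif GCCNNNGGC, the AP-1 motif TGANTCA, the TEAD motif GGAATG, the GC box GGGCGG, the TATA box TATAAA and CCAAT. Adjacent GC boxes overlap in the Cftr window.
Cftr (chr6:18170437-18170736, plus strand): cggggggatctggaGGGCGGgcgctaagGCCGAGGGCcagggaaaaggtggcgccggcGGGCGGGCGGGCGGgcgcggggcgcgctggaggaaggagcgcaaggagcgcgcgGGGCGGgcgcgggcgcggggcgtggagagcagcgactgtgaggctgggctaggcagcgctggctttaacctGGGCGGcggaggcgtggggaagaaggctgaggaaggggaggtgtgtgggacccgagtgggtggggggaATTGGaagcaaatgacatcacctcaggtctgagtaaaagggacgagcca
Tm4sf1 (chr3:57301939-57302238, minus strand): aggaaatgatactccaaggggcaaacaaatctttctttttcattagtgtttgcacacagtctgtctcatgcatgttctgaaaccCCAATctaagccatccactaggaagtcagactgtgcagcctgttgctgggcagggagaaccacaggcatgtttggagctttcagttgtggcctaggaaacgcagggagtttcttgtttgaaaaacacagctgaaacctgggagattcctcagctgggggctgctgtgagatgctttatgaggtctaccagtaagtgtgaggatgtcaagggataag
Tnfsf18 (chr1:161494407-161494706, plus strand): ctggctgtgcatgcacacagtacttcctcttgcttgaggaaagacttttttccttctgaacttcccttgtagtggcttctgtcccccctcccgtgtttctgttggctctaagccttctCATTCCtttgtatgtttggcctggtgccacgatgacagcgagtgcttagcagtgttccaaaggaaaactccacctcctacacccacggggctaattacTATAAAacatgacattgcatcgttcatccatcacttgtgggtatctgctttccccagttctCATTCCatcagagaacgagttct

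The 6 windows had no common base composition. Cftr had 31 CG dinucleotides and 71.3% G or C, above 92.6% of 32851 promoter windows in GC content, while Tm4sf1 had 1 CG and 47.3% G or C, and Atg9b 2 CG and 50.7%. Tnfsf18, Liph and Tlcd2 had 6, 7 and 10, around the median of 7 over all windows. The Tlcd2 window, at 75467800 to 75468099 on chromosome 11, lay inside the annotated gene span of 75461715 to 75470899 and not at its start. Its features therefore describe a RefSeq start within that span. CCAAT stood in 5 of 6 windows, against 37.4% of all windows, and was missing in Tnfsf18, whose window instead held a TATA box starting 34 bases before the transcript start. The AP-2 motif was found in 2 of 6, Tlcd2 and Cftr, against 16.6% of all windows. GC boxes were found in 2 of 6, with 6 matches in Cftr, against 35.7%. TEAD motifs stood only in Tnfsf18, 2 of them, against 14.7% of windows, and the AP-1 motif in none of 6, against 7.8%. A match is a description of letters, not of binding.

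The targeted gene was reduced throughout. Phf2 stood at 19.8 CPM (undated), 14.9 (30 August) and 25.5 (3 September) with sh900, 25.0, 17.0 and 28.1 with sh902, and 56.3, 52.8 and 48.6 with shNT. The share left, relative to the shNT library of the same label, was 35.2%, 28.3% and 52.4% with sh900 and 44.4%, 32.1% and 57.7% with sh902. All 6 hairpin libraries lay below all 3 shNT libraries, and the 30 August libraries held the least Phf2 and the 3 September libraries the most with either hairpin.

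**Figure D1:**
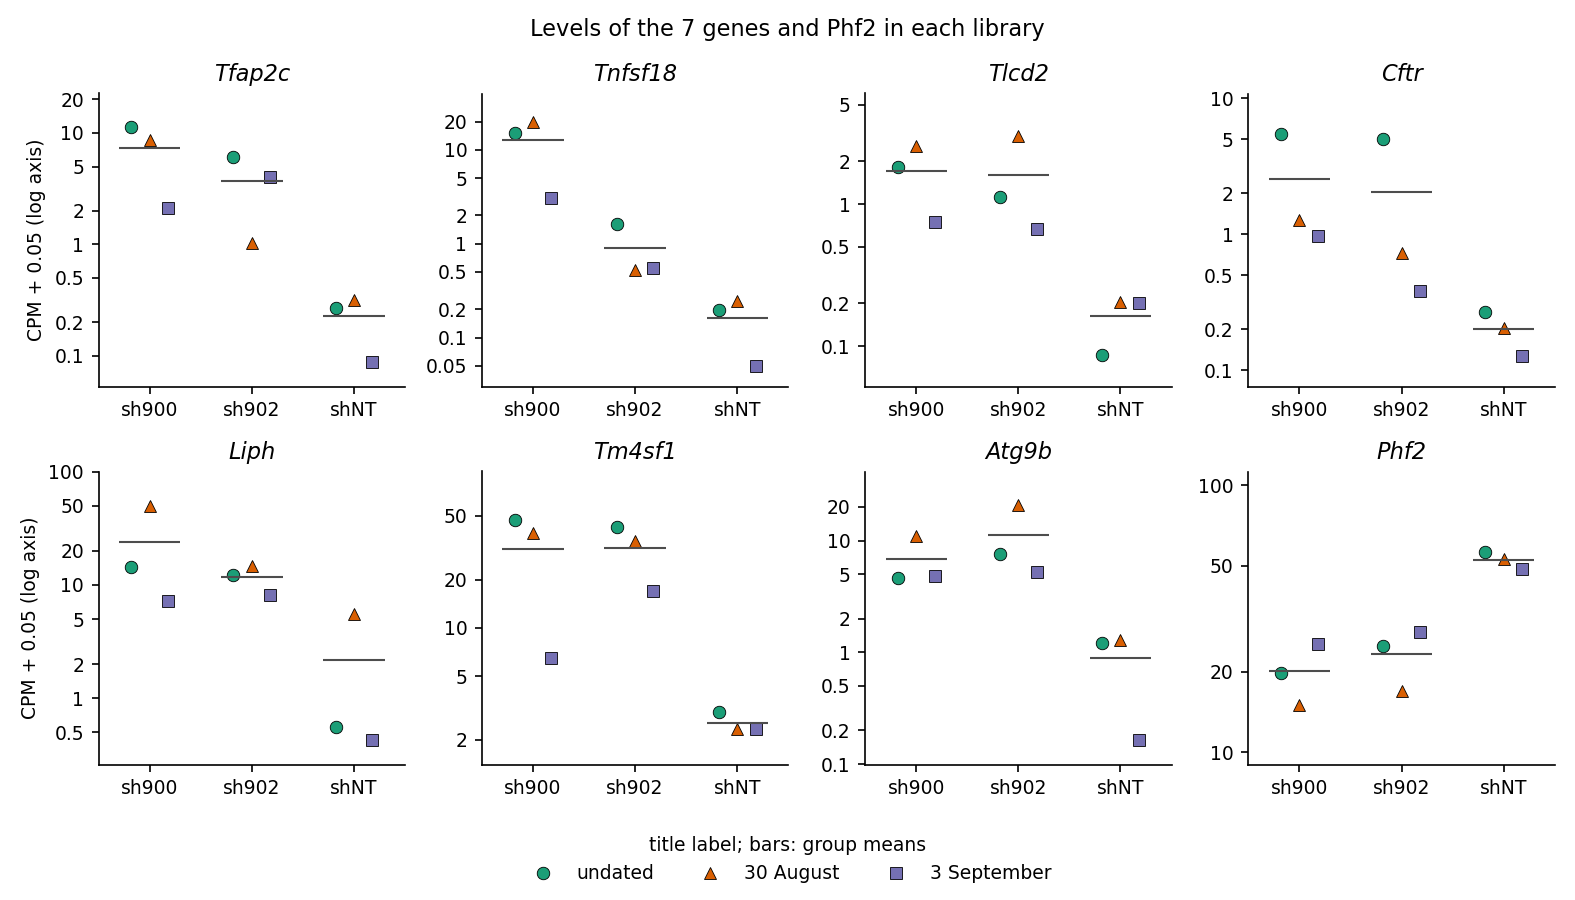
Level of each of the 7 genes and of Phf2 in the 9 libraries, as CPM plus 0.05 on a log axis, by group and title label, with bars at the group means. For each of the 7 genes all 6 hairpin libraries lay above all 3 shNT libraries, and for Phf2 all 6 lay below.

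The label of genes switched on holds for part of the set. With shNT, 4 of the 7 genes, Tfap2c, Tnfsf18, Tlcd2 and Cftr, were under 1 CPM in every library and had 9 to 14 counts summed over the 3 libraries. Tm4sf1, Liph and Atg9b were low but clearly counted, with 200, 166 and 67 counts. The separation of hairpin from shNT libraries was a criterion of choice: 7 of 7 genes had every hairpin library above every shNT library, as did 594 of 17602 genes tested (3.37%). Of 2335 tested genes under 1 CPM in every shNT library, 74 had that separation.

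Tfap2c (ENSMUSG00000028640, chromosome 2, 172549593 to 172558622, plus strand, 9 merged exon blocks) had 11.3 CPM (undated), 8.56 (30 August) and 2.05 (3 September) with sh900, 6.03, 0.983 and 3.98 with sh902, and 0.219, 0.269 and 0.0382 with shNT. The lowest hairpin library, sh902 of 30 August, was 3.65 times the highest shNT library. Means were 7.29 ± 4.73 CPM with sh900, 3.67 ± 2.54 with sh902 and 0.176 ± 0.122 with shNT (SD, n = 3 each), 41.5 and 20.9 times the shNT mean. The shNT libraries held 6, 7 and 1 counts, so single ratios are imprecise. For 3 September, sh902 against shNT came to 104 with a counting interval of 18.3 to 4166 (95%, exact conditional, counting error only).

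Tnfsf18 (ENSMUSG00000066755, chromosome 1, 161494655 to 161505290, plus strand, 3 blocks) had 14.9, 19.8 and 3.01 CPM with sh900 (undated, 30 August and 3 September, the order kept below), 1.58, 0.470 and 0.498 with sh902, and 0.146, 0.192 and 0 with shNT. All 3 sh900 libraries were high and all 3 sh902 libraries low, yet above every shNT library. Counts with sh902 were 52, 11 and 12, against 4, 5 and 0 with shNT, so the margin of the sh902 library of 30 August over its shNT library was 2.44 with a counting interval of 0.783 to 8.97. On 3 September, where shNT had no count, sh900 was at least 26.3-fold and sh902 at least 4.35-fold higher against a floor of 3 counts per library.

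Cftr (ENSMUSG00000041301, chromosome 6, 18170687 to 18322768, plus strand, 29 blocks) had 5.37, 1.23 and 0.917 CPM with sh900, 4.93, 0.684 and 0.332 with sh902, and 0.219, 0.154 and 0.0763 with shNT. The undated library of each hairpin stood above its dated libraries, at 24.5 and 22.5 times the undated shNT library. The dated sh902 libraries held 16 and 8 counts, against 4 and 2 with shNT, and the 3 September ratio of 4.35 had a counting interval of 0.868 to 42.0.

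Liph (ENSMUSG00000044626, chromosome 16, 21953817 to 21995663, minus strand, 10 blocks) had 14.4, 50.1 and 7.12 CPM with sh900, 12.2, 14.6 and 8.09 with sh902, and 0.512, 5.46 and 0.382 with shNT. The 30 August shNT library stood above the other shNT libraries, and the lowest hairpin library was 1.30 times as high as it. Relative to the shNT library of the same label, sh900 gave 28.2, 9.17 and 18.6 and sh902 gave 23.9, 2.67 and 21.2.

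Tm4sf1 (ENSMUSG00000027800, chromosome 3, 57285611 to 57301988, minus strand, 8 blocks) had the highest mean of the set per kilobase of merged exon in each group. It had 47.1, 39.0 and 6.42 CPM with sh900, 42.3, 34.9 and 16.8 with sh902, and 2.92, 2.31 and 2.29 with shNT. The shNT libraries were close to each other, at 2.51 ± 0.361 CPM (SD, n = 3), so the differences in ratio, from 2.80 with sh900 on 3 September to 16.9 with sh900 on 30 August, came from the hairpin libraries.

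Tlcd2 (ENSMUSG00000038217, chromosome 11, 75461715 to 75470899, plus strand, 8 blocks) had 1.77, 2.495 and 0.697 CPM with sh900, 1.07, 2.95 and 0.622 with sh902, and 0.0365, 0.154 and 0.153 with shNT. Its annotation shares 206 exonic bases on the same strand with Mir22hg, the host gene of miR-22, so reads may be split between them. Mir22hg had 8.14, 17.1 and 6.16 CPM with sh900, 9.59, 14.1 and 6.35 with sh902, and 4.06, 3.77 and 3.62 with shNT. In both genes the 30 August hairpin libraries were highest and the 3 September ones lowest.

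Atg9b (ENSMUSG00000038295, chromosome 5, 24384181 to 24392143, minus strand, 14 blocks) had 4.53, 10.8 and 4.80 CPM with sh900, 7.49, 20.7 and 5.14 with sh902, and 1.17, 1.23 and 0.114 with shNT. It overlaps Nos3, the endothelial nitric oxide synthase gene, by 294 exonic bases on the opposite strand, and nothing in the labels says that strand was kept. Nos3 had 118 counts over all 9 libraries, between 0.129 and 1.03 CPM, below Atg9b in each hairpin library. In the 3 September shNT library Nos3, at 0.191 CPM, stood above Atg9b.

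Per kilobase of merged exon the mean levels with sh900 ran from Tm4sf1 (7.41 CPM per kilobase) through Tnfsf18 (6.09), Liph (5.42), Tfap2c (1.98), Atg9b (1.70) and Tlcd2 (0.854) to Cftr (0.323). With sh902 the order was Tm4sf1 (7.53), Atg9b (2.81), Liph (2.64), Tfap2c (0.996), Tlcd2 (0.798), Tnfsf18 (0.412) and Cftr (0.255). Neighbours in both orders overlapped in their library ranges, except Liph and Tfap2c with sh902. Tnfsf18 was second with sh900 and next to last with sh902.

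The hairpins were then compared directly. The choice of genes asked for a rise with both hairpins and not for a difference between them, but it used the same hairpin libraries. Tnfsf18 was lower with sh902 than with sh900 at each label, by log2 ratios of -3.24, -5.40 and -2.59, and it was the 1 gene of 7 whose 3 sh902 and 3 sh900 libraries did not overlap. Of all tested genes 11.3% had sh902 wholly below sh900 and 11.2% wholly above, so a count of 1 in 7 is no more than the background. In edgeR's quasi-likelihood test its log2 fold change came to -3.86 ± 0.92 (SE, adjusted p = 0.117) with groups alone and to -3.68 ± 0.56 (SE, adjusted p = 0.0232) once the label was added as replicate block. The blocked fit called 4.22% of all genes tested, 1.74% higher and 2.48% lower with sh902, and 1 of the 7 genes. The fit without the block called none of 17602 genes (2532 at an unadjusted p under 0.05). DESeq2 on that design called 1035, Tnfsf18 among them (-3.88, adjusted p = 0.000188). The blocked call was lost without the undated sh900 (adjusted p = 0.127), 30 August sh900 (0.136), undated sh902 (0.165) or 30 August sh902 library (0.0734), with a log2 fold change of -4.17 to -2.94 over the 9 fits that left out 1 library each.

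The other 6 genes did not pass this test in either fit. Blocked log2 fold changes of sh902 over sh900 were -0.84 ± 0.74 for Tfap2c, -0.65 ± 0.42 for Cftr, -0.46 ± 0.55 for Liph, -0.21 ± 0.45 for Tlcd2, 0.22 ± 0.45 for Tm4sf1 and 0.56 ± 0.45 for Atg9b (SE, edgeR adjusted p from 0.409 to 0.822). A p that misses the threshold does not show that the hairpins acted alike on them. Tfap2c changed sides between labels, at -3.12 on 30 August and 0.96 on 3 September. Atg9b was higher with sh902 at 3 of 3 labels and Cftr lower at 3 of 3. Phf2 itself differed by 0.22 ± 0.19 (SE, adjusted p = 0.550).

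**Figure D2:**
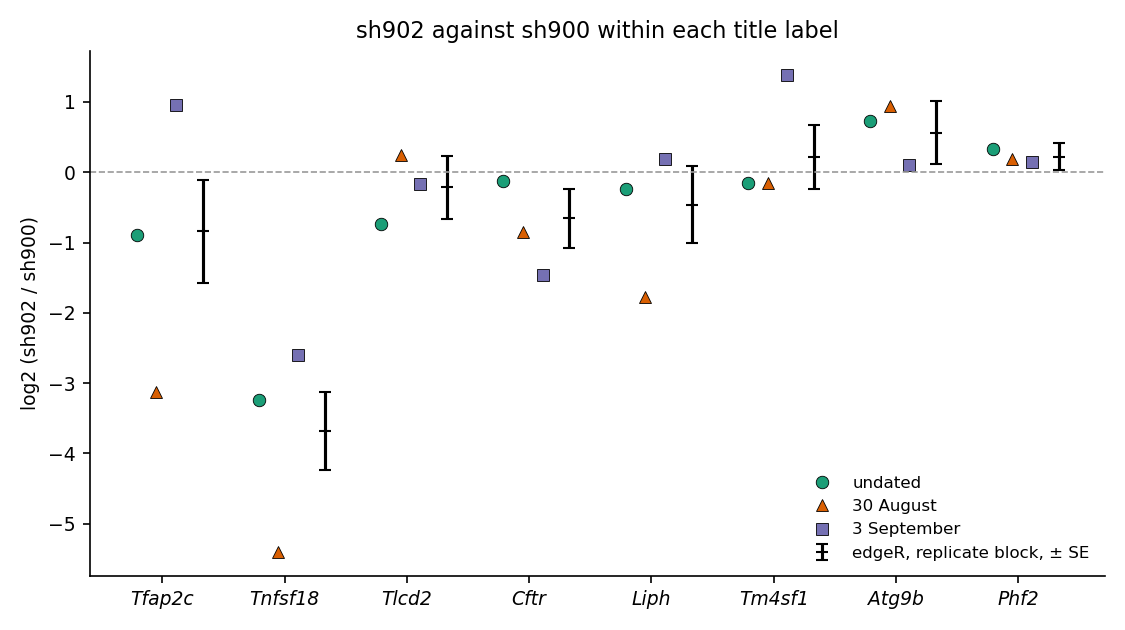
Log2 ratio of sh902 to sh900 within each title label for the 7 genes and Phf2 (symbols), with the edgeR estimate of the blocked fit and its SE (bars). Tnfsf18 lies between -5.40 and -2.59, and the blocked estimates of the other 6 genes lie between -0.84 and 0.56.

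Whether the level follows the remaining Phf2 was described in the 6 hairpin libraries, in which Phf2 varied from 14.9 to 28.1 CPM. These libraries share 3 labels and the label goes with the Phf2 level, so no correlation is given, and Phf2 and label cannot be told apart. With sh900, 6 of 7 genes were lowest on 3 September, where most Phf2 was left, the exception being Atg9b, and with sh902 5 of 7, the exceptions being Tfap2c and Tnfsf18. None was highest on 3 September with either hairpin. At the other end the order broke: on 30 August, with the least Phf2, 4 of 7 were highest with sh900 and 3 of 7 with sh902, and the undated libraries were highest for 3 and 4. Tlcd2 came closest to a simple order, its highest levels being in the 2 libraries with the least Phf2 and its lowest in the 2 with the most. With shNT, too, 6 of 7 were lowest on 3 September, 5 of 7 were highest on 30 August and none was highest on 3 September. The share of all tested genes with each of these orders was not counted, so the counts are a description only. Phf2 with shNT was itself lowest on 3 September, at 48.6 CPM. Most of the genes had too few or too similar shNT counts for a firm order of labels. Liph, with 142 counts on 30 August against 14 (undated) and 10 (3 September), and Atg9b, with 32, 32 and 3 counts (undated, 30 August and 3 September), were the clear differences.

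Ratios to the shNT library of the same label gave no common order. Tm4sf1 and Tlcd2 had their lowest ratios on 3 September, with log2 ratios of 1.49 to 2.88 for Tm4sf1 and 2.03 to 2.19 for Tlcd2. Atg9b and Tfap2c had their highest ratios there, over shNT libraries with 3 and 1 counts. For Atg9b they came to 42.0 (counting interval 14.1 to 206) with sh900 and 44.9 (15.03 to 221) with sh902. For Tfap2c with sh900 the 3 September ratio of 53.8 (9.27 to 2164) could not be told from the undated ratio of 51.3 (23.4 to 141). Liph had its lowest ratios on 30 August. Within a label, sh902 left more Phf2 than sh900 at 3 of 3 labels, and the genes with the lower level under sh902 numbered 6 of 7 (undated), 5 of 7 (30 August) and 3 of 7 (3 September). The share of all tested genes lower under sh902 at each label was not counted, so these numbers are a description only.

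**Figure D3:**
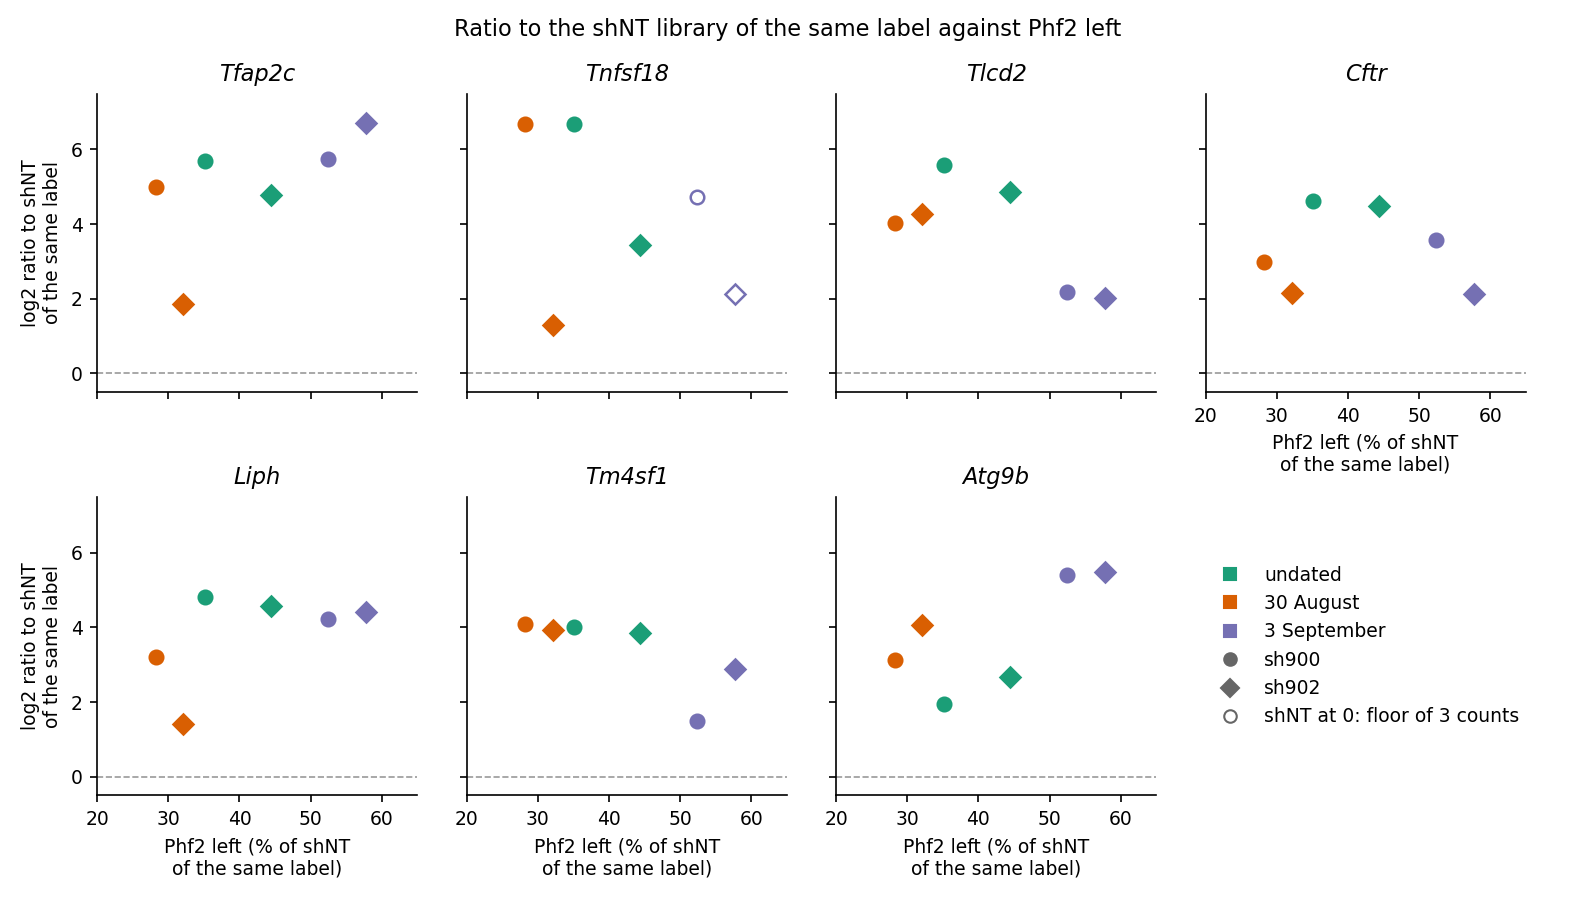
Log2 ratio to the shNT library of the same label (vertical axis) against Phf2 left in percent of that library (horizontal axis), 6 hairpin libraries per gene, with open symbols where shNT had 0 counts and a floor of 3 counts was used. The 3 September libraries, at 52.4% and 57.7%, give the lowest ratios for Tm4sf1 and Tlcd2 and the highest for Atg9b and Tfap2c. For Atg9b and Tfap2c the 3 September shNT library held 3 and 1 counts.

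The label itself was tested as 30 August minus 3 September over all groups, with the group as a term. Liph was higher on 30 August by 2.52 ± 0.61 on the log2 scale (SE, edgeR adjusted p = 0.0306) and Atg9b by 1.78 ± 0.48 (SE, adjusted p = 0.0359). That is 2 of 7 genes, where 20.5% of all tested genes were called in this contrast and 10.1% as higher and 10.4% as lower. Estimates for Tnfsf18 (1.94 ± 0.63, adjusted p = 0.0643), Tlcd2 (1.70 ± 0.53, 0.0558), Tm4sf1 (1.19 ± 0.49, 0.130), Cftr (0.73 ± 0.52, 0.346) and Tfap2c (0.52 ± 0.85, 0.697) did not pass. The Liph call was lost without the undated sh900 (adjusted p = 0.0637), 30 August sh900 (0.112), 3 September sh900 (0.161), undated sh902 (0.0600), 3 September sh902 (0.0536) or 3 September shNT library (0.0693). The Atg9b call was lost without the 30 August sh900 (adjusted p = 0.118), 3 September sh900 (0.0589), undated sh902 (0.0676), 30 August sh902 (0.111), 3 September sh902 (0.130) or 3 September shNT library (0.0572). DESeq2 called 4385 of 17602 genes in this contrast, 2146 of them higher. With it 5 of 7 passed, with adjusted p of 0.0106 for Tnfsf18, 0.0365 for Tlcd2 and 0.0356 for Tm4sf1 besides Liph and Atg9b. Without the low-count filter edgeR called 3814 of 38220 genes, 1846 of them higher. Tnfsf18 (adjusted p = 0.0458) and Tlcd2 (0.0251) passed there and Liph did not (0.172). Tnfsf18 also passed without the 30 August sh902 library (0.0107), Tlcd2 without the undated (0.0492) or 3 September shNT library (0.0273), and Tm4sf1 without the 3 September shNT library (0.0279). Gfap was lower on 30 August than on 3 September in each group, and its part in these differences was not tested.

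The difference in response between the labels, the hairpin effect on 30 August minus that on 3 September with sh900 and sh902 taken as the 2 libraries of a label, was called for none of the 7 genes, against 1.39% of all tested genes, 0.017% higher and 1.37% lower. Estimates ran from -2.89 ± 7.52 for Tnfsf18 to 2.03 ± 1.02 for Tlcd2 (log2, SE, edgeR adjusted p from 0.726 to 0.992). With 1 shNT library per label and few shNT counts for several genes, errors of 0.79 or more leave even large differences undetectable. Any difference between sh900 and sh902 within a label also entered these errors.

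Related genes were counted in the contrast of both hairpins with shNT. Without the block edgeR called none of 17602 genes there (2809 at an unadjusted p under 0.05, and 755 by DESeq2), so the counts below are from the blocked fit, which called 11.7% of genes, 6.08% higher and 5.59% lower. Of receptors of the TNF family, 6 of 15 tested were higher (Tnfrsf12a, Tnfrsf10b, Tnfrsf1a, Ltbr, Fas and Relt) and 0 lower, with a median log2 fold change of 0.61 against -0.02 over all genes. Tnfrsf12a, the receptor of TWEAK, stood at 60.3 ± 54.0 CPM with sh900, 108.6 ± 101.5 with sh902 and 14.2 ± 18.1 with shNT (SD, n = 3 each), and rose by 2.88 ± 0.27 on the log2 scale (SE, adjusted p = 0.00437). The death receptor gene Tnfrsf10b rose by 2.12 ± 0.22 and the TNF receptor gene Tnfrsf1a by 1.06 ± 0.12, and all 3 calls held in 9 of 9 fits that left out 1 library. Over those fits the list had 4 to 7 higher and 0 lower, while the number called over all genes changed widely, as given further below. Tnfrsf18, which encodes GITR, the receptor of the Tnfsf18 product, had 1.95 ± 0.201 CPM with sh900, 4.30 ± 3.46 with sh902 and 1.80 ± 0.456 with shNT and did not pass (log2 fold change 0.61 ± 0.41, adjusted p = 0.3595). Of the TNF family ligands, 3 of 17 could be tested and Eda, of ectodermal appendage development, rose by 1.22 ± 0.24 (adjusted p = 0.0187), a call that held in 5 of 9 fits. The neighbours of Tnfsf18 in its ligand cluster stayed near 0, Tnfsf4 with 9 and Fasl with 21 counts over all 9 libraries.

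Of the AP-2 genes, Tfap2a alone could be tested, at 2.32 ± 1.58 CPM with sh900, 1.87 ± 1.09 with sh902 and 1.70 ± 1.61 with shNT, and did not pass (0.52 ± 0.31, adjusted p = 0.307), while Tfap2b, Tfap2d and Tfap2e had 32, 3 and 10 counts in all. Of AP-2 cofactors 0 of 7 and of trophoblast genes 0 of 4 tested were called. Among germ cell genes Prdm1, a transcriptional repressor, was higher (1.61 ± 0.40, adjusted p = 0.0395, held in 2 of 9 fits) and the receptor gene Kit lower (-1.58 ± 0.18, adjusted p = 0.00492, 9 of 9). None of the 42 core autophagy genes was called, and Atg9a stood at 52.1 ± 3.07 CPM with sh900, 42.9 ± 9.55 with sh902 and 53.0 ± 11.2 with shNT. Without 1 library at a time, 0 to 8 of them were called lower. The number called over all genes also changed widely between those fits, as given further below. These counts are therefore not read as a result about the list.

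For Liph, the list of lysophosphatidic acid genes had 1 of 14 higher and 1 lower. Lpar6, a receptor whose human gene shares a hair disorder with LIPH, had 56.7 ± 29.0 CPM with sh900, 29.2 ± 9.51 with sh902 and 18.9 ± 8.33 with shNT (1.07 ± 0.21, adjusted p = 0.0195, held in 4 of 9 fits), and Plpp3, which degrades lysophosphatidic acid, fell by 1.63 ± 0.20 (log2, adjusted p = 0.00519, 9 of 9 fits). None of 3 tested lipases and none of 5 tested ABCC transporters was called. Of 9 tested epithelial ion transport genes 1 was higher, the calcium-activated chloride channel gene Ano1, at 1.54 ± 1.06 CPM with sh900, 0.878 ± 0.0905 with sh902 and 0.0737 ± 0.0963 with shNT. Without 1 library at a time this list had 0 to 2 higher and 0 to 1 lower, so the Ano1 call did not hold in every fit. The TLC domain list had 2 of 15 higher, Fam57a (0.87 ± 0.18) and Cln8 (0.48 ± 0.12), and 2 lower, Fam57b and the ceramide synthase gene Cers1 (-0.79 ± 0.15). The calls of Fam57a, Cln8 and Cers1 held in 4, 1 and 4 of 9 fits. Of 21 tetraspanins 2 were higher, Tspan4 (1.33 ± 0.15) and Cd151 (0.60 ± 0.12), and 2 lower, Tspan11 and Tspan7 (-0.56 ± 0.11). The calls of Tspan4, Cd151 and Tspan7 held in 9, 6 and 5 of 9 fits. The closest relatives of Tm4sf1 were not measurable, Tm4sf4, Tm4sf5, Tm4sf19 and Tm4sf20 having 0, 2, 10 and 20 counts.

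**Figure D4:**
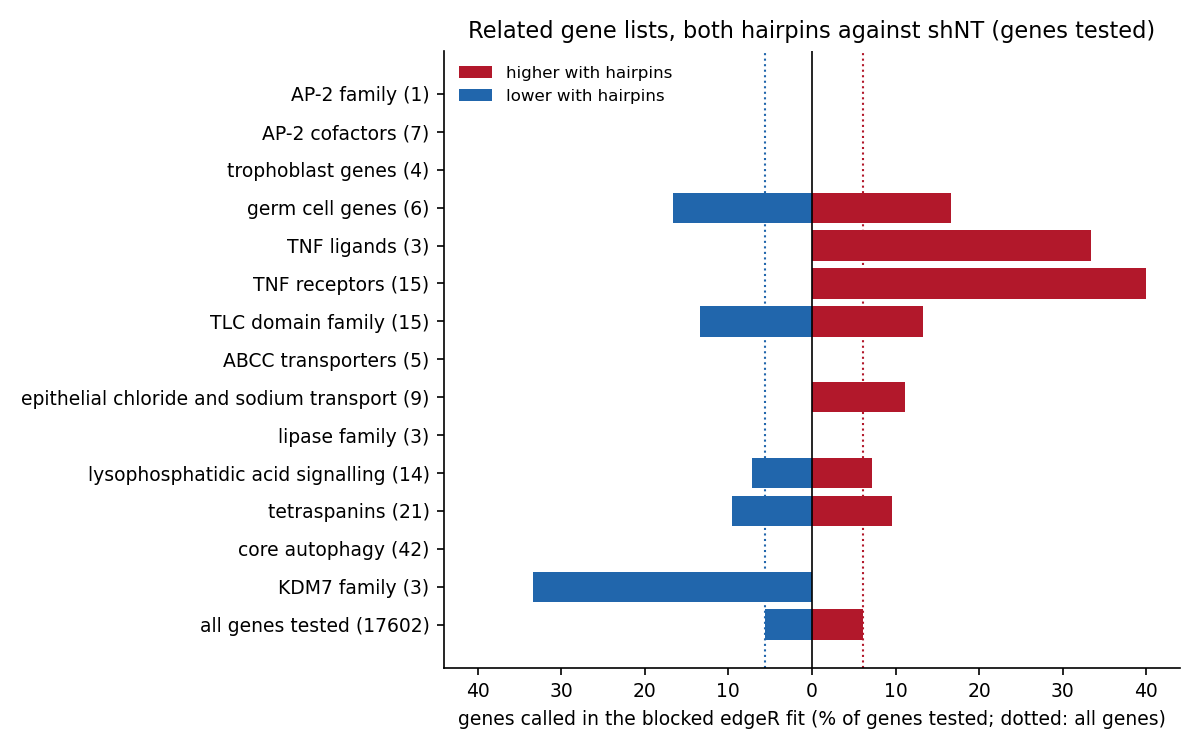
Share of tested genes called higher (right) or lower (left) with both hairpins against shNT in the blocked edgeR fit, for each related list (number tested in parentheses) and all genes, with dotted lines at 6.08% and 5.59%. TNF family receptors had 6 of 15 genes higher and core autophagy genes 0 of 42 called.

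Genes beside the 7 on their chromosomes did not share one behaviour. Over all genes tested, the blocked fit called 6.08% higher and 5.59% lower. Mir22hg shares 206 exonic bases with Tlcd2 on the same strand, so its values are not separate from those of Tlcd2. Bmp7, nearest to Tfap2c on its higher-coordinate side, rose by 1.15 ± 0.22 (log2, edgeR with the block, adjusted p = 0.0166), Senp2 beside Liph by 0.43 ± 0.11 (adjusted p = 0.0465) and Mir22hg by 1.29 ± 0.27 (adjusted p = 0.0218), while Cttnbp2 beside Cftr fell by 0.63 ± 0.13 (adjusted p = 0.0227). Tmem41a (0.85 ± 0.26, adjusted p = 0.0728), Wdr81, Prpf8, Nbea, Nos3, Kcnh2 and Abcb8 did not pass, and Fam209, Asz1 and Tm4sf4 had at most 3 counts in all.

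Markers of other cell types were measured beside these genes. Over all genes tested, the blocked fit called 6.08% higher and 5.59% lower with both hairpins. Summed over 23 epithelial markers the level was 6.18 to 12.7 CPM with sh900, 7.99 to 9.21 with sh902 and 9.19 to 13.0 with shNT, and 0 of 7 tested were higher in the blocked fit. The 10 trophoblast markers summed to 1.90 to 3.12 CPM with sh900, 1.28 to 1.70 with sh902 and 3.32 to 5.15 with shNT. The 10 endothelial markers summed to 6.79 to 15.8 CPM with sh900, 4.73 to 10.00 with sh902 and 8.22 to 11.5 with shNT. Microglia and macrophage markers summed to 1.76 to 5.08 CPM with sh900, 3.24 to 4.83 with sh902 and 2.19 to 3.03 with shNT, with Adgre1 at 0 counts and Cd68, a macrophage lysosomal gene, as the 1 gene called higher of 2 tested. Fibroblast and pericyte markers summed to 40.6 to 169 CPM with sh900, 35.6 to 67.4 with sh902 and 18.3 to 58.9 with shNT, with 0 of 10 higher in the blocked fit. In the blocked fit 5 of 9 tested neuron markers, 5 of 8 of the oligodendrocyte lineage and 2 of 7 astrocyte markers were lower. None of these lists had a gene higher. The neural stem and progenitor list was split, with 2 of 13 higher and 3 lower. Such counts do not rank the lists, since only 2 of 10 trophoblast and 2 of 10 microglia and macrophage markers could be tested. The epithelial, endothelial, fibroblast and pericyte, and neural crest lists had 1 lower each, and the ependymal list 1 higher. The part of these cell types in the levels of the 7 genes was not tested.

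The genes whose log2 CPM followed each of the 7 most closely over the 9 libraries, among 12506 eligible genes, were none of the 7 themselves. Nearest by Pearson's r were Nagpa to Tfap2c (0.977), Cenpb to Tnfsf18 (0.976), Ptgfr to Cftr (0.951), Entpd4b to Liph (0.986), Ube2g2 to Tm4sf1 (0.979), BC023719 to Tlcd2 (0.980) and Ift88 to Atg9b (0.980). The next nearest were Pak6 and Prr5l to Tfap2c, Cep126 and Prkab1 to Tnfsf18, Srf and Arl4d to Cftr, Dyrk3 and Suclg1 to Liph, Adam10 and Ankfy1 to Tm4sf1, Inpp5f and Pptc7 to Tlcd2, and Icam1 and Naif1 to Atg9b, all at 0.945 or above. These values are a description of 9 libraries that share labels, and among so many genes some lie close to any profile. They also take in the difference between hairpin and shNT libraries by which the 7 were chosen. Each of the nearest genes had a higher mean with both hairpins than with shNT.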

How the data were processed

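RNA-seq was made from total RNA of 9 mouse neural stem cell libraries. Per the submitters' processing notes, tools included FastQC, cutadapt, Trimmomatic 0.36, STAR 2.5.0a and RSEM, and the build was GRCm38. The authors deposited estimated counts per gene, whole numbers already. RSEM divides reads that fit several genes by a model, so overlapping genes are uncertain. Neither annotation release nor strandedness is given in the sources used here. Symbols and coordinates came from GENCODE M21 (GRCm38), which matched 54079 of 54232 identifiers.

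Tests were edgeR 4.0.16 quasi-likelihood F tests (R 4.3.3) on all 9 libraries, with TMM factors, the default expression filter, robust dispersions and Benjamini-Hochberg adjustment over 17602 genes, at a threshold of 0.05. SE was derived from the fold change and F. The fit with the title label as replicate block is given where it changes a call. Deviations from group means correlated at 0.402 to 0.645 between libraries with the same date and at 0.0799 to 0.399 between undated ones. Between libraries of different labels the values ran from -0.66 to 0.302. The undated shNT library correlated at 0.145 with undated sh900 and at 0.0799 with undated sh902. With the 3 September libraries of sh900 and sh902 it reached 0.285 and 0.302. Pairing by date was assumed from these values, but they do not show that the undated shNT library is paired. The blocked fit still treated the undated libraries as a block, so its calls against shNT depend on that assumption. Chi-square per degree of freedom between libraries of a group was at least 52.6, so none was a repeat deposit. The scripts were tested on simulated counts.

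The 7 genes and all lists were chosen with earlier results of these data known. Named genes were the 7, Phf2, their overlapping and adjacent genes, in each list up to 3 called genes of smallest adjusted p at 1 CPM or more, the 3 nearest genes in profile, and Mki67 and Gfap. Ano1, Cd68, Acta2, Pdgfrb, Col3a1, Vim, Hes5, the remaining called list genes and the uncalled family members were named after their values were seen. Alternatives were DESeq2 1.42.0, RLE factors, no low-count filter, dated libraries alone, and leaving out single libraries, which with the block was added after seeing the data. Intervals and floors (3 counts) cover counting error only, since PCR reads are not independent molecules.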

Additional observations from a re-analysis of the deposited data

Results flagged for a closer look

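Tnfsf18 answered unequally to the hairpins: its log2 fold change of sh902 minus sh900 was -3.679 in the edgeR fit with the replicate block (adjusted p = 0.0232), with sh902 below sh900 at 3 of 3 labels, although both hairpins lowered Phf2. Without the block the difference did not pass in edgeR (adjusted p = 0.117) and passed in DESeq2 (adjusted p = 0.000188).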

How the results depend on the processing

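With 3 libraries a group and under 15 shNT counts for 4 of the 7 genes, small differences were not detectable. The replicate block moved the called genes to 743 for sh902 minus sh900 and to 2054 for both hairpins minus shNT, against 0 without it for each. With DESeq2 they numbered 1035 and 755, and without the low-count filter 139 and 8. Leaving out 1 library without the block gave 0 to 95 and 0 to 1. With the block, sh902 minus sh900 gave 0 calls without the undated or 30 August library of either hairpin, 313 without sh900 of 3 September, 120 without sh902 of 3 September, and 613, 1992 and 402 without the undated, 30 August and 3 September shNT library. With the block, both hairpins minus shNT gave 657, 1001 and 1437 calls without the undated, 30 August and 3 September sh900 library, 646, 2476 and 804 without those of sh902, and 257, 3637 and 964 without those of shNT.

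For 30 August minus 3 September the 3613 calls became 2164 in the dated libraries alone and 1090 to 3990 with 1 library left out. Liph then had 2.38 on the log2 scale and did not pass in the dated libraries, nor without the filter (2.52). The 244 calls of the response became 772 without the filter, 596 with DESeq2, 165 in the dated libraries, and 0 to 252 with 1 library left out. The response could not be fitted without the 30 August or 3 September shNT library.

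Estimates that changed sign did so on leaving out 1 library, and none of them had passed a test. For sh902 minus sh900 without the block the ranges were -0.92 to 0.30 for Tlcd2, -2.31 to 0.90 for Cftr, -1.45 to 0.10 for Liph, -0.45 to 0.46 for Tm4sf1 and -0.051 to 1.23 for Atg9b. With the block the sign differed from the main fit at 0.18 for Tlcd2, 0.061 for Tfap2c, 0.16 for Liph and -0.28 for Tm4sf1. Tfap2c ran from -0.46 to 1.74 between the dates, and Cftr from -0.97 to 0.51 in the response. RLE factors changed no call of the 7 genes, and gave 3632 calls between the dates and 251 for the response. Tnfsf18 stayed lower with sh902 in all alternatives run. In sh902 minus sh900 the block changed the call of Tnfsf18 and of no other of the 7 genes.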
